A study of Mus musculus with 62 samples.

Results

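The 9 genes described here mark neurons of the striatum or the thalamus. Foxp2, Scn4b, Tcf7l2, Prkcd, Drd1, Drd2, Adora2a, Rgs9 and Ppp1r1b were followed in RNA from hippocampus, to see what the dissected tissue held. These 9 of the 53975 gene identifiers in the tables were selected on earlier measured values of the same libraries, chiefly the higher levels of Foxp2 and Scn4b in APP than in WT mice at 3 months. Levels in that contrast are therefore given as a description, with no test. The members were matched by gene name, and TPM (a level per transcript length, scaled to the same total in each library) was summed per gene identifier. By region, 6 members were taken as striatal, 2 as thalamic (Tcf7l2 and Prkcd), and Foxp2 as a marker of both.

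The study compared the hippocampus of APP NL-G-F mice, a model of amyloid pathology called APP here, with that of C57BL/6J mice, called WT here. APP mice were sampled at 3, 6 and 12 months (3 mice at each age), and WT mice at 3 months (2 mice), 6 months (3 mice) and 12 months (3 mice), which gave 17 long-RNA libraries with 1 library per mouse. Left and right hippocampi of a mouse were pooled before RNA extraction, and the labels name no treatment of the mice. The series also holds 14 long-RNA libraries of HT-22 cells, a mouse hippocampal cell line, which are used here once for comparison. Those cells were given an LNA against Hsf1 (150 nM) or a scramble LNA (50 uM as labelled) for 24 h, followed by amyloid beta 1-42 or its reverse peptide (30 uM).

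Medium spiny neurons, the main neurons of the striatum, receive dopamine and signal through cyclic AMP. Those of the direct pathway carry the dopamine receptor Drd1, and those of the indirect pathway carry Drd2 together with the adenosine receptor Adora2a. Ppp1r1b (DARPP-32) and Rgs9 act below these receptors. In the thalamus, relay neurons are glutamatergic, depend during development on the transcription factor Tcf7l2, and express the kinase Prkcd. Hippocampal tissue is not devoid of these transcripts; mossy cells of the dentate hilus, for example, express Drd2.

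Relative depth, read from the deposited coverage, ran from 1.42 to 3.04 over the 17 mouse libraries. Levels are given below as scaled TPM, which is TPM divided by a median-of-ratios factor for each library. Xist was at 70.2 to 137 scaled TPM in the 11 libraries of APP mice and of 3-month WT mice and at 0.26 to 0.52 in the 6 libraries of WT mice at 6 and 12 months, while the Y-linked Ddx3y was at most 0.08 in the former and at 18.7 to 28.0 in the latter. Genotype and the difference in these sex-linked transcripts therefore cannot be told apart at 6 and 12 months. Of the 18 hippocampal markers examined, all were above the expression filter, and the summed level of the list was 226 to 294 scaled TPM in the APP libraries at 3 months against 399 to 407 in the WT libraries at 3 months. The libraries that stood apart in the genes described below were replicates 1 and 2 of APP at 3 months and replicate 1 of APP at 6 months, and the remaining libraries are called the 14 others.

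Promoter windows were read from RefSeq (GRCm38.p6) for 6 of the 9 members (not Foxp2, Adora2a and Ppp1r1b), each running from 250 bases before a gene start to 50 bases after it. Tcf7l2 encodes a factor of the TCF/LEF family and Foxp2 one of the forkhead family, so the windows were searched on both strands for CTTTGA, the core of the TCF/LEF motif, and TGTTTA, a forkhead core. The windows shown are the member windows with a match, and 2 of them belong to Prkcd and Drd2, the pair of members with the most similar profile over libraries. The windows are Prkcd at chr14:30626159-30626458 (minus strand), Drd2 at chr9:49340153-49340452 (plus strand) and Tcf7l2 at chr19:55741560-55741859 (plus strand), written 5′ to 3′ with the match in capitals.
Prkcd: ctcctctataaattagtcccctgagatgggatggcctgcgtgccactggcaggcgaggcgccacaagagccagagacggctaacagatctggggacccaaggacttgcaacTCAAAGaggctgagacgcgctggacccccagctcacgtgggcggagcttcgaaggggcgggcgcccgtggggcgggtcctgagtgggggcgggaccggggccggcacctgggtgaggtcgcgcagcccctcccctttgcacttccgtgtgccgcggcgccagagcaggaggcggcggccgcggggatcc
Drd2: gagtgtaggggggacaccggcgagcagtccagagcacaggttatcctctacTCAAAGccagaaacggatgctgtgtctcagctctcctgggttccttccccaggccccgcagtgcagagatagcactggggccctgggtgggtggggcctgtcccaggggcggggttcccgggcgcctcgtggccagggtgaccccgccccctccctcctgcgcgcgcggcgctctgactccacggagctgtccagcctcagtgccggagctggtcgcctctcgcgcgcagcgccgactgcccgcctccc
Tcf7l2: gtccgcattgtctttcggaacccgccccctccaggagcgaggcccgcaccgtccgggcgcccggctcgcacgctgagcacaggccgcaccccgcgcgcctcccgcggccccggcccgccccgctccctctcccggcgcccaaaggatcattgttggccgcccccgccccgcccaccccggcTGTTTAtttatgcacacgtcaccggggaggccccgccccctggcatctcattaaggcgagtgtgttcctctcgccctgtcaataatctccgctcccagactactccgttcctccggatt
The capitals mark TCAAAG, the reverse complement of CTTTGA, 139 bases before the start of Prkcd and 199 bases before that of Drd2, and TGTTTA 69 bases before that of Tcf7l2. These distances are to the RefSeq starts that define the windows. The Drd2 window, which ends at 49340452, lies wholly before the gene start of 49340627 given below, so its match is farther from that start. Among 32851 windows of the same length, 16.0% held the TCF/LEF core and 13.4% the forkhead core on either strand. Of the 9 member windows, 2 held the TCF/LEF core and 1 the forkhead core, and nothing is read from these counts. The other windows of Scn4b, Tcf7l2, Prkcd, Drd1 and Rgs9 held neither string, which says only that these letters are not in these windows. GC content was 69.3% in the Prkcd window, 70.3% in that of Drd2 and 70.0% in that of Tcf7l2, above the median of 52.7% over all windows.

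All 9 members had their highest level of the 17 libraries in replicate 1 of APP at 3 months. Replicate 2 of the same group had rank 2 or 3 for all 9, and replicate 1 of APP at 6 months was above all 14 others for Tcf7l2, Prkcd and Drd2. For Foxp2 it had rank 4 of the 17 libraries, below the 3 APP libraries at 3 months and 2.29-fold above the median of the 14 others. The plot of scaled TPM by library shows these 3 libraries above a narrow band for the thalamic members.

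**Figure D1:**
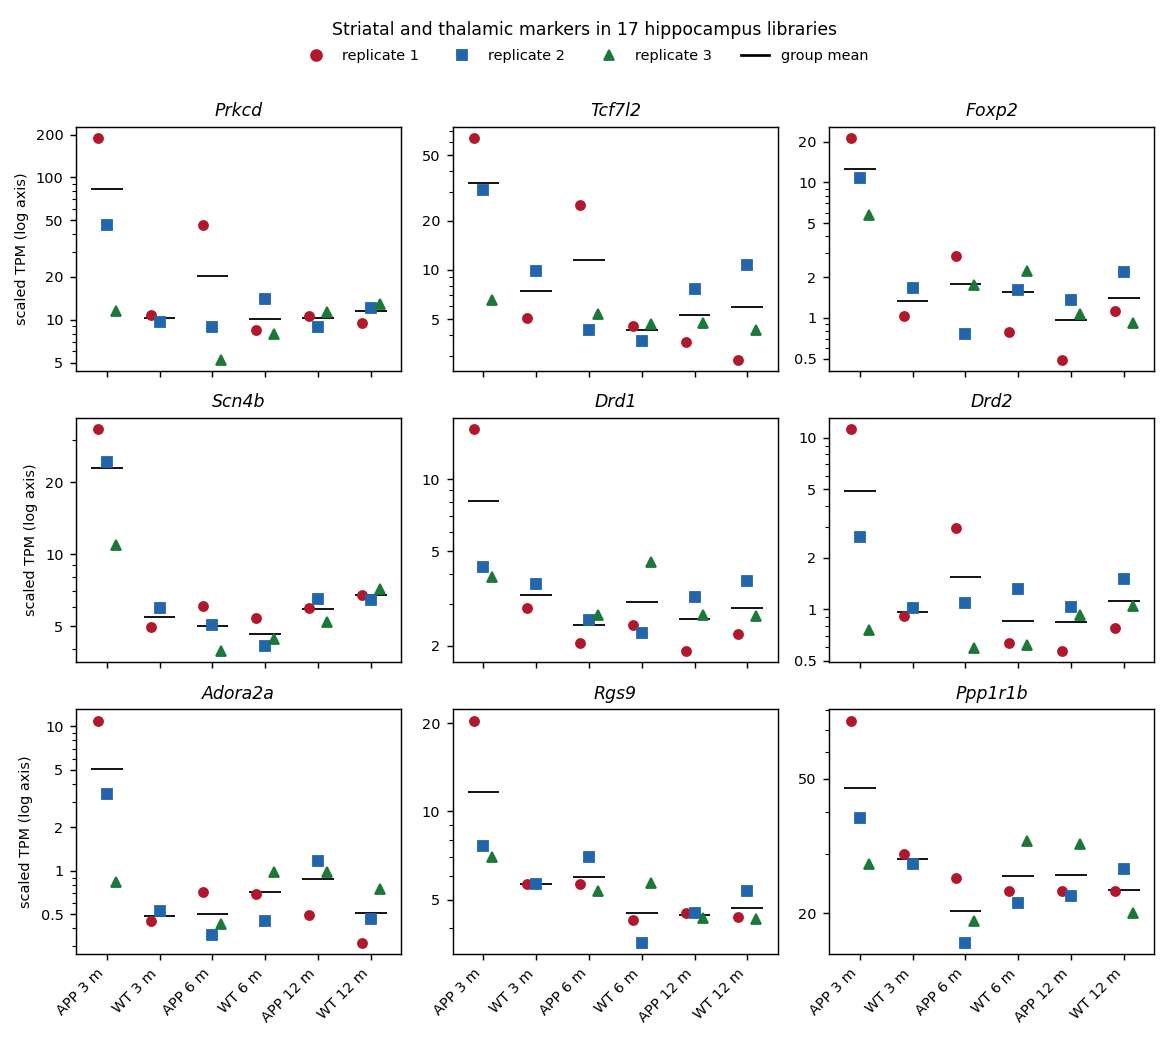
Scaled TPM (log axis) of each member in the 17 hippocampus libraries, by group (APP or WT at 3, 6 and 12 months), with 1 point per mouse and a line at the group mean. Replicate 1 of APP at 3 months is the highest point in all 9 panels, and replicate 1 of APP at 6 months stands out for Prkcd (46.7), Tcf7l2 (24.7) and Drd2 (2.97).

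The thalamic members are described first. Prkcd (ENSMUSG00000021948, chromosome 14, 30595354 to 30626210, minus strand) encodes protein kinase C delta. It was at 190.2, 46.6 and 11.5 scaled TPM in replicates 1 to 3 of APP at 3 months and at 10.8 and 9.65 in the 2 WT libraries of that age. At 6 months it was at 46.7, 8.83 and 5.24 in APP and at 8.46, 14 and 7.93 in WT, and at 12 months at 10.6, 8.90 and 11.3 in APP and at 9.56, 12.1 and 13.0 in WT. The 3 high libraries were thus above all 14 others, and replicate 3 of APP at 3 months lay within the range of the others, 5.24 to 14. Replicate 1 of APP at 3 months was 18.8-fold above the median of the 14 others, and the others 4.61-fold and 4.62-fold.

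Tcf7l2 (ENSMUSG00000024985, chromosome 19, 55741810 to 55933654, plus strand), which acts downstream of Wnt signalling, had the same 3 libraries on top. It was at 64.0, 30.5 and 6.56 scaled TPM in APP at 3 months, at 5.07 and 9.85 in WT at 3 months, and at 24.7, 4.31 and 5.38 in APP at 6 months. In WT at 6 months it was at 4.57, 3.68 and 4.72, and at 12 months at 3.64, 7.68 and 4.74 in APP and at 2.84, 10.7 and 4.29 in WT. Replicate 3 of APP at 3 months lay below replicate 2 of WT at 3 months, so that the groups overlapped at that age. Over the median of the 14 others the 3 high libraries were 13.5-fold, 6.46-fold and 5.22-fold higher.

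Foxp2 (ENSMUSG00000029563, chromosome 6, 14901349 to 15441977, plus strand), a forkhead transcription factor of both regions, differed from the thalamic pair in that all 3 APP libraries at 3 months were raised. It was at 21.4, 10.8 and 5.78 scaled TPM in them, against 1.03 and 1.66 in WT at 3 months. Elsewhere it ran from 0.491 in replicate 1 of APP at 12 months to 2.86 in replicate 1 of APP at 6 months. The 3 APP libraries at 3 months were thus the 3 highest of the 17, with no overlap with any other group.

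Scn4b (ENSMUSG00000046480, chromosome 9, 45138395 to 45154152, plus strand), a beta subunit of voltage-gated sodium channels, showed the same order. Its levels were 33.4, 24.2 and 10.9 scaled TPM in APP at 3 months and 4.94 and 5.93 in WT at 3 months. The other 12 libraries lay between 3.92 and 7.15, with 6.06 in replicate 1 of APP at 6 months, which was not raised for this gene. Foxp2 and Scn4b were the members on whose 3-month difference the selection rested.

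The dopamine and adenosine receptors were low in most libraries and high in 1 to 3 of them. Drd1 (ENSMUSG00000021478, chromosome 13, 54051183 to 54055705, minus strand) was at 16.3, 4.29 and 3.87 scaled TPM in APP at 3 months and at 2.87 and 3.65 in WT. Replicate 3 of WT at 6 months, at 4.5, was above replicates 2 and 3 of APP at 3 months. Only replicate 1 of APP at 3 months was thus separate from the rest for Drd1, 6.08-fold above the median of the 14 others.

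Drd2 (ENSMUSG00000032259, chromosome 9, 49340627 to 49408177, plus strand) was at 11.2, 2.65 and 0.755 scaled TPM in APP at 3 months, at 0.908 and 1.02 in WT at 3 months, and at 2.97, 1.08 and 0.593 in APP at 6 months. It followed the thalamic members rather than Drd1, with the same 3 libraries above all 14 others, whose range was 0.569 to 1.5. Adora2a (ENSMUSG00000020178, chromosome 10, 75316877 to 75334784, plus strand) was at 11.0, 3.39 and 0.832 in APP at 3 months and at 0.449 and 0.525 in WT at 3 months. In replicate 1 of APP at 6 months Adora2a was at 0.716, inside the range of the others (0.319 to 1.17), so that the 2 genes of the indirect pathway parted in that library.

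Rgs9 and Ppp1r1b, which act inside the cell, had the smallest folds in replicate 1 of APP at 3 months. Rgs9 (ENSMUSG00000020599, chromosome 11, 109225355 to 109298129, minus strand), which speeds the inactivation of G proteins, was at 20.4, 7.60 and 6.99 scaled TPM in APP at 3 months and at 5.65 and 5.64 in WT at 3 months. Ppp1r1b (ENSMUSG00000061718, chromosome 11, 98348404 to 98357796, plus strand), an inhibitor of protein phosphatase 1, was at 74.5, 38.3 and 28.0 in APP and at 29.9 and 28.0 in WT at that age. Ppp1r1b had the highest median of the members in the 14 others, 23.3, and its excess in replicate 1 of APP at 3 months was 3.19-fold, against 4.14-fold for Rgs9. The 2 groups overlapped for Ppp1r1b and did not for Rgs9.

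Counted on one scale, a member was taken as raised in a library by its log2(scaled TPM + 1). The rule asked for at least 1 above its median over the 17 libraries. That is 2-fold for scaled TPM + 1, and more than 2-fold in scaled TPM itself, most of all for low genes. On that rule 9 of 9 members were raised in replicate 1 of APP at 3 months, where 2.23% of the 17840 genes tested were. In replicate 2 of that group 5 of 9 were raised, namely Foxp2, Scn4b, Tcf7l2, Prkcd and Adora2a (background 1.1%). In replicate 1 of APP at 6 months 2 of 9 were, Tcf7l2 and Prkcd (background 0.734%). Drd2 fell short of the rule in both libraries, at 0.85 and 0.98, though it was 2.60-fold and 2.92-fold its median in scaled TPM. Foxp2 was the 1 member raised in replicate 3 of APP at 3 months, and no member was raised in the other 13 libraries. Among these, Tcf7l2 in replicate 2 of WT at 12 months was at 0.95, or 2.11-fold its median in scaled TPM. These counts describe the values that chose the members, so the background is given for scale and nothing is read from it. The heat map of departures shows how the 3 APP mice of 3 months differed among themselves.

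**Figure D2:**
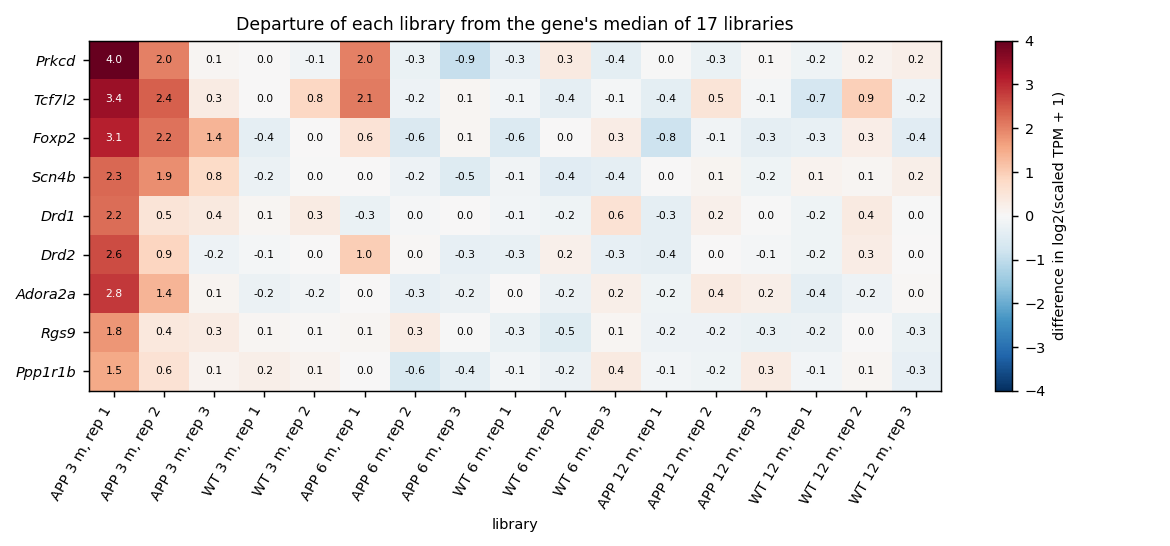
Difference in log2(scaled TPM + 1) between each of the 17 libraries (columns) and the member's median over them (rows), red above and blue below. The first column, replicate 1 of APP at 3 months, is at 1.5 to 4.0 for all 9 members, and replicate 1 of APP at 6 months is raised by about 2 for Prkcd and Tcf7l2.

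All 9 members passed the filter of a mean of at least 1 TPM over the 17 libraries. Without the 3 high libraries, Drd2 (mean 0.906 TPM) and Adora2a (0.631 TPM) would have failed it, so they passed only through the libraries where they were high. The other 7 members had means of 1.62 (Foxp2) to 24.7 TPM (Ppp1r1b) in the 14 others.

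Ordered by group mean, APP at 3 months was first for all 9 members. Foxp2 had a mean of 12.7 ± 7.99 scaled TPM (SD, n = 3) in that group, Scn4b 22.8 ± 11.3, Prkcd 82.8 ± 94.7 and Tcf7l2 33.7 ± 28.8. The SD exceeded the mean for Prkcd, as it did for Drd2 (4.88 ± 5.58) and Adora2a (5.07 ± 5.29). In the order of means, the first and second groups did not overlap for Foxp2, Scn4b, Drd1 and Rgs9, and overlapped for the other 5 members. Over all genes tested, the group with the highest mean did not overlap the next for 8.48%. Below the first group, neighbouring groups overlapped throughout, except that the 2 WT libraries at 3 months were above all 3 WT libraries at 12 months for Rgs9. The highest of the other 5 group means was 1.34-fold (Drd1) to 2.65-fold (Tcf7l2) the lowest.

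At 3 months every APP library was above every WT library for 6 of 9 members, namely Foxp2, Scn4b, Prkcd, Drd1, Adora2a and Rgs9, as for 13.8% of all genes tested. With TPM as deposited, without scaling, the count was 3 of 9 (Foxp2, Scn4b and Adora2a), as for 4.4% of all genes tested. Log2 differences between the group means of log2(scaled TPM + 1) were 2.39 for Foxp2, 2.11 for Prkcd, 1.76 for Scn4b, 1.63 for Adora2a, 1.62 for Tcf7l2, 1.12 for Drd2, 0.85 for Drd1, 0.78 for Rgs9 and 0.56 for Ppp1r1b, against a median over all genes of 0.004. Without replicate 1 of the APP group these differences were smaller for all 9 members, 1.12 for Prkcd, 0.93 for Tcf7l2, 0.37 for Drd2 and 0.17 for Ppp1r1b, while Foxp2 was at 1.95 and Scn4b at 1.43. In bulk tissue, fewer cells of a type and less RNA per cell cannot be told apart, nor can more cells and more RNA.

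Variation within groups was wide for the members. The SD of log2(scaled TPM + 1) within groups, pooled over the 6 groups, was 0.37 (Scn4b and Rgs9) to 1.09 (Prkcd), against a median of 0.23 over all genes. The 3 APP libraries at 3 months carried 47.7% (Foxp2) to 90% (Adora2a) of the within-group sum of squares. For Prkcd, APP at 6 months carried a further 36.6% and the other groups 3.8%.

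At 6 and 12 months, contrasts that the selection did not rest on, no member was called between APP and WT by limma with Benjamini-Hochberg adjustment over 17840 genes. At 6 months 0 of 9 members were called (0 with an unadjusted p below 0.05), against 1.66% of genes. The largest estimate was that of Tcf7l2, a log2 change of 0.85 (SE 0.71, 95% interval -0.67 to 2.37, limma adjusted p = 0.597), which rests on replicate 1 of the APP group, since without that library it was 0.14. Prkcd was at 0.40 (95% interval -1.36 to 2.16), and without the same library its sign turned, at -0.47. Scn4b was at 0.08 (95% interval -0.50 to 0.66) and Foxp2 at 0.10 (-0.73 to 0.94). For Scn4b, 2-fold changes of either sign lay outside the interval. Foxp2 was low (mean 1.545 scaled TPM in WT at 6 months), where a pseudocount of 1 shrinks a 2-fold change on this scale. A 2-fold change of Foxp2 of either sign therefore lay inside its interval. With TPM as deposited, where all genes shifted by a median of 0.60 between these groups, Rgs9 was called (0.95, limma adjusted p = 0.0104), against 0.36 (limma adjusted p = 0.564) after scaling.

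At 12 months 0 of 9 members were called (0 with an unadjusted p below 0.05), against 0.443% of genes. Estimates ran from -0.28 for Foxp2 (95% interval -1.12 to 0.56) to 0.13 for Ppp1r1b (-0.46 to 0.72) among the 7 members that passed the filter without the high libraries, and those of the thalamic members were -0.01 for Tcf7l2 (-1.53 to 1.5) and -0.15 for Prkcd (-1.91 to 1.60). These intervals leave room for changes of more than 2-fold in Tcf7l2, Prkcd and Foxp2. For Scn4b (-0.76 to 0.41), Rgs9 (-0.65 to 0.53) and Ppp1r1b they do not. Drd1 (-0.90 to 0.69) was low (mean 2.874 scaled TPM in WT at 12 months), and a pseudocount of 1 shrinks its changes on this scale. A 2-fold fall of Drd1 lay inside its interval. The widths rest on a spread pooled over the 6 groups, which include the 3 high libraries. At 12 months the SE was 0.814 for Prkcd, 0.707 for Tcf7l2 and 0.392 for Foxp2. Without the 3 high libraries it was 0.216, 0.369 and 0.295, and with only the groups of the contrast 0.142, 0.412 and 0.275. The wide interval of Prkcd therefore does not measure the spread between the mice of 12 months. Drd2 and Adora2a passed the filter only through the libraries where they were high, so nothing is read from their tests; of the other 7 members 0 were called in each tested contrast.

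Contrasts of age gave no call among the members either. Between 6 and 12 months 0 of 9 members were called in APP mice (0 with an unadjusted p below 0.05), against 0.538% of genes, and 0 of 9 in WT mice, against 0.0% of genes (0 genes called by limma, 1216 with an unadjusted p below 0.05). In APP mice the lowest estimate was that of Tcf7l2, -0.64 (95% interval -2.15 to 0.88), and the highest that of Ppp1r1b, 0.35 (-0.25 to 0.94). In WT mice the highest was that of Scn4b, 0.47 (95% interval -0.12 to 1.05, limma adjusted p = 0.806), whose mean went from 4.65 ± 0.67 to 6.77 ± 0.36 scaled TPM (SD, n = 3 each). The change of the genotype difference from 6 to 12 months was called by limma for 0 of 9 members (0 with an unadjusted p below 0.05), against 0.0224% of genes, with estimates from -0.86 for Tcf7l2 (95% interval -3.01 to 1.28) to 0.47 for Ppp1r1b (-0.37 to 1.3) among the same 7 members. APP at 6 months enters 3 of the 5 contrasts, and the plot of changes shows the widest intervals for the thalamic members.

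**Figure D3:**
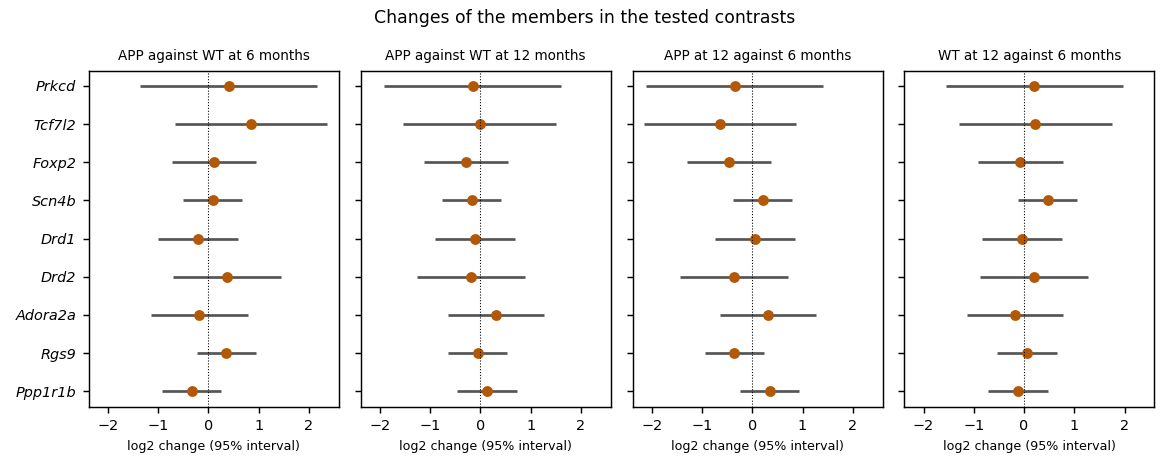
Log2 change (points) with its 95% interval (lines) of each member in 4 contrasts fitted with limma on log2(scaled TPM + 1), with 0 dotted. All 36 intervals include 0, and those of Prkcd and Tcf7l2 are the widest. Drd2 and Adora2a are drawn although they passed the expression filter only through the libraries where they were high.

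The members varied together over libraries, with the same libraries high in several of them. Over the 17 libraries Pearson's r between members on log2(scaled TPM + 1) ran from 0.693 (Prkcd and Drd1) to 0.965 (Prkcd and Drd2) over the 36 pairs, with a median of 0.824, and Spearman's rho had a median of 0.477. Without the 2 libraries farthest from the median of each pair's first gene, the median r was 0.331, and without the 3 high libraries it was 0.248 (n = 14), so the relation rests on those libraries. Over these 14, Foxp2 and Drd1 (0.72) and Tcf7l2 and Drd1 (0.70) had the highest r. Points share libraries, depth and scaling, and these r are descriptions.

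Genes with the most similar profile to the mean of the thalamic members, of 12505 protein-coding candidates over the 17 libraries, were Slc6a11 (r = 0.987), Shox2 (0.975), Amotl1 (0.974), Rgs16 (0.969), Grid2ip (0.967), Hcn4 (0.964), Slitrk6 (0.959), Tnnt1 (0.955), Slc17a6 and Wnt3 (both 0.952). Slc17a6, the vesicular glutamate transporter VGLUT2, was at 99.7, 33.5 and 29.6 scaled TPM in the 3 high libraries and at 6.83 to 17 in the 14 others. Shox2, a homeobox gene, was at 22.2, 11.5 and 6.50 and at 0.0 to 2.47 in the others, with a median of 0.20. Of these 10 genes, 6 are on the wider thalamus list below, a list of textbook markers drawn up with earlier results known.

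For the mean of the striatal members the most similar genes were Plekhg1 (r = 0.951), Rora (0.947), Rarb (0.943), Inpp5a (0.941), Eml1 and Esrrg (both 0.939), Kitl (0.938), Ret (0.936), Mctp2 (0.935) and Mcf2 (0.933). Rarb, a retinoic acid receptor on the wider striatum list, was at 12.2, 3.58 and 2.23 scaled TPM in the 3 high libraries and at 1.02 to 1.86 in the others. Plekhg1 and Rora are on the thalamus list. Of single members, Tcf7l2 was closest to Slc6a11, Shox2 and Rgs16 (r = 0.980 to 0.987), Drd1 to Vezf1, Agpat5 and Tac1 (0.895 to 0.910), and Drd2 to Prkch, Ptpn3 and Slitrk6 (0.960 to 0.961). Prkcd was closest to Slitrk6, Grid2ip and Amotl1, Foxp2 to Pdp1, Rnf152 and Slc18a2, Scn4b to Nefh, Sgpp2 and Tnfaip6, Adora2a to Plekhg1, Inpp5a and Esrrg, Rgs9 to Kitl, Fhdc1 and Gjc1, and Ppp1r1b to Pcp4l1, Kcnj12 and Tmem41a.

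The wider marker lists split the 3 libraries. The rule of the members was used for these lists, where it is called 2-fold. On the thalamus list, 17 of 17 tested genes were raised in replicate 1 of APP at 3 months (2.23% of all genes tested). In replicate 2, 12 of 17 were (1.1%), in replicate 3 0 of 17 (0.852%), and in replicate 1 of APP at 6 months 12 of 17 (0.734%). Shox2, Tnnt1 and Hcn4 had medians of 0.20, 0.33 and 0.63 scaled TPM in the 14 others, under the filter of 1 TPM. Their place among the tested genes leans on the high libraries, so nothing is read from their part in the counts. The summed level of the list was 798, 318 and 291 scaled TPM in the 3 high libraries and 113 to 165 in the 14 others. Of its most abundant genes, Ptpn3 was at 52.4, 32.0 and 27.6 against 16.8 to 22.8, the nuclear receptor Rora at 101, 44.5 and 27.2 against 12.3 to 20.2, and the calcium-binding Calb2 at 61.0, 23.4 and 39.2 against 8.60 to 23.8. By summed level, genes of the thalamus were thus high in all 3 libraries.

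On the striatum list, 12 of 19 tested genes were raised in replicate 1 of APP at 3 months (2.23% of all genes tested). Six3, counted there, had a median of 0.42 scaled TPM in the 14 others, under the filter of 1 TPM. Only 1 of 19 was raised in replicate 2 (1.1%) and 1 of 19 (Oprm1) in replicate 1 of APP at 6 months (0.734%). The rule is strict for low genes. In these last 2 libraries Rarb (3.58 and 2.23 against 1.02 to 1.86) and Syndig1l (4.13 and 4.16 against 1.17 to 2.96) were above the 14 others. At least 2-fold below were 1 of 19 and 0 of 19. The summed level was 696 scaled TPM in replicate 1 of APP at 3 months, 378 and 350 in the other 2 high libraries, and 277 to 406 in the 14 others. Penk, the enkephalin precursor of indirect-pathway neurons, was at 89.4, 20.7 and 16.0 against 7.70 to 20.2, and Tac1, the substance P precursor of direct-pathway neurons, at 25.3, 8.54 and 6.11 against 2.89 to 9.70. Arpp21, the most abundant gene of the list, was at 122, 113 and 74.6, inside the range of the others (68.6 to 189), whose top was replicate 3 of APP at 3 months. Genes of the striatum were thus high mainly in replicate 1 of APP at 3 months, with a median departure of 1.32. That median was 0.36 and 0.31 in the other 2 high libraries.

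**Figure D4:**
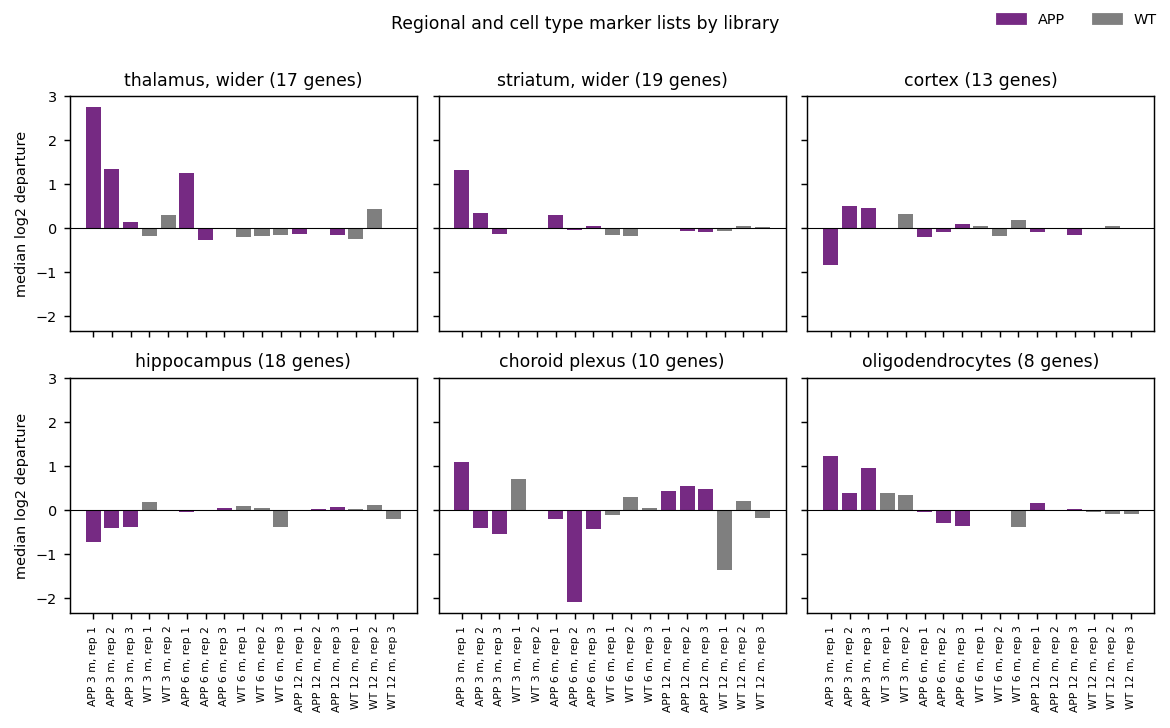
Median departure of the tested genes of 6 marker lists from their median over 17 libraries, on log2(scaled TPM + 1), with 1 bar per library (purple APP, grey WT). The thalamus list is raised in 3 libraries (2.76, 1.34 and 1.27), the striatum list mainly in replicate 1 of APP at 3 months (1.32), where the hippocampus list is lowest (-0.72).

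Markers of the hippocampus and of other tissue also departed from their medians in the APP mice of 3 months, not always in the libraries where the members did. On the hippocampus list, 8 of 18 genes were at least 2-fold below their median in replicate 1, 3 of 18 in replicate 2 and 0 of 18 in replicate 3. Of all genes tested, 3.06%, 0.93% and 0.633% were as far below in replicates 1, 2 and 3. Prlr, on the same list, was raised in replicate 1 (33.7 scaled TPM against 1.17 to 16.55 in the 14 others). The median departure of the list was -0.72, -0.40 and -0.37 in replicates 1 to 3, and -0.38 in replicate 3 of WT at 6 months. Neurod6, a transcription factor of pyramidal neurons, was at 8.01 scaled TPM in replicate 1, 38.6 in replicate 2 and 45 in replicate 1 of APP at 6 months, against 60.4 to 99.3 in the 14 others. The 3 high libraries were thus all below the 14 others for Neurod6. In replicate 1 of APP at 6 months the hippocampus list summed to 367, and 0 of its 18 genes, Neurod6 included, were as much as 2-fold below their median. Prox1, which marks granule cells of the dentate gyrus, was not below the range of the others in any of the 3 high libraries (22.3, 17.2 and 28.1 against 13.5 to 28.1). This did not hold for all genes expressed there. In replicate 1 of APP at 3 months C1ql2 was at 7.45 against 10.2 to 27.1, and Dsp at 2.26 against 3.12 to 10.1. Neither was below the others in the remaining 2 high libraries.

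Cortical markers went 2 ways. In replicate 1 of APP at 3 months 6 of 13 were at least 2-fold below (3.06% of all genes tested), and Rorb alone was above. In replicate 2, 5 of 13 were above, among them Rorb, Lamp5, Nxph4 and Myl4 (1.1% of all genes). In replicate 3, 3 of 13 were above, among them Lamp5 and Myl4 (0.852% of all genes). Lamp5, one of the most abundant genes of the list, was at 8.01 scaled TPM in replicate 1 and at 45 in replicate 2, against a median of 17.7 in the 14 others. Choroid plexus markers were raised in replicate 1 (8 of 10, against 2.23% of all genes) and in neither of the other 2 high libraries. Ttr was at 2260 in replicate 1 against 27.2 to 1552. This list also swung elsewhere, with 10 of 10 at least 2-fold below in replicate 2 of APP at 6 months (1.23% of all genes). In replicate 1 of WT at 12 months 8 of 10 were as far below (0.908%). Oligodendrocyte markers were raised in replicate 1 of APP at 3 months (6 of 8, against 2.23% of all genes) and in replicate 3 (4 of 8, against 0.852%). Mobp was at 660.5 in replicate 1 against a median of 281. The part of any of these in the levels of the members was not tested.

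The genes around the striatal members in their pathway were next examined. Of 33 tested genes of dopamine and cyclic AMP signalling, Gnal, Pde1b and Pde10a were raised at least 2-fold in replicate 1 of APP at 3 months (2.23% of all genes). None was in replicate 2 (1.1%) or 3 (0.852%), or in replicate 1 of APP at 6 months (0.734%). The most abundant genes of the list, Gnas, Ppp3ca, Prkar1a and Gnao1, were at 420, 173, 255 and 128 scaled TPM in replicate 1 of APP at 3 months, against medians of 374, 351, 239.6 and 172 in the 14 others. Drd5, a dopamine receptor of the same class as Drd1, was at 2.51, 1.52 and 3.80 in the 3 high libraries and at 2.33 to 4.81 in the others, so it was not raised with Drd1. No gene of the striatum, thalamus, cortex, choroid plexus or dopamine and cyclic AMP lists was called in any of the 5 tested contrasts, and of the hippocampus list C1ql2 was called, higher in APP at 6 months.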

How the data were processed

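RNA of hippocampus from 17 mice and of 14 HT-22 cultures was read as long-RNA libraries, depleted of ribosomal RNA per the labels' protocols. The deposited tables give TPM, FPKM and coverage per gene and library. HISAT2 2.1.0, StringTie 1.3.4d, BWA 0.7.17, bedtools 2.26.0 and cutadapt 1.18 are listed in the submitters' processing notes with the build GRCm38, with no role stated. TPM as deposited sums to about the same total in each library, FPKM as deposited is a multiple of TPM, and the coverage signal was deposited as a depth per gene. For members with several annotated transcripts that coverage was lower relative to TPM (1.51% to 3.45% of the single-transcript ratio for Foxp2), and its averaging is not stated there. Relative depth is the most frequent ratio of coverage to FPKM; no read counts were recovered, and no count test was used. A match for 53934 identifiers was found in the M21 release of GENCODE, where start and end were identical for 98.3%.

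TPM was summed per gene identifier, scaled by median-of-ratios factors over the genes above 0 in every library with a mean of at least 1 TPM, and tested as log2(scaled TPM + 1) with limma 3.58.1 (R 4.3.3; trend and robust moderation) in 1 fit of 6 groups, on 17840 genes with a mean of at least 1 TPM. A gene was called at a Benjamini-Hochberg adjusted p below 0.05. A pseudocount of 1 understates changes of low genes. The fit was tested on simulated data with known changes. Each library is 1 mouse, and p-values measure the spread between mice.

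The members and all gene lists were chosen with earlier results of these data known. All 9 members were named, with the 3 protein-coding genes of highest r for each, the 10 for each regional mean, and for lists their counts, called genes and most abundant genes; other list genes were named after their values were seen. Alternatives were TPM without scaling, a pseudocount of 0.1, no filter, only the groups of a contrast, a replicate block, each library left out, deviations from group means for r, and 2 chosen after seeing the data (coverage in place of TPM, and leaving out the 3 high libraries). Short-RNA libraries were not used here.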

Additional observations from a re-analysis of the deposited data

How the results depend on the processing

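No member was called under any of the alternatives in the tested contrasts, except Rgs9 at 6 months with TPM as deposited, where the count of members called was 1. Leaving out each library gave 0 members called in each tested contrast and 6 to 9 members without overlap at 3 months, where 19.7% to 27.8% of all genes tested did not overlap in the same direction. With TPM as deposited that last count of members was 3, against 6 after scaling, and the median log2 change of all genes shifted by -0.16 at 3 months, 0.60 at 6 and 0.12 at 12 months. The count of all genes called was less stable: at 6 months it was 297, and it was 10339 with TPM as deposited, 115 with no filter, 37 with only the groups of the contrast, 450 without the 3 high libraries, and 66 (without replicate 3 of APP) to 285 with 1 library left out. At 12 months it was 79, and 25 (without replicate 1 of APP) to 46 with 1 library left out. For APP at 12 against 6 months it was 96, and 26 with TPM as deposited, 42 with a pseudocount of 0.1, 1 with only the groups of the contrast, 52 without the 3 high libraries, and from 1 (without replicate 1 at 12 months) to 129 (without replicate 2 at 6 months) with 1 library left out. For WT at 12 against 6 months it was 0, and 2 with no filter, 1 with only the groups of the contrast, 1 without the 3 high libraries, and 0 to 4 (without replicate 1 at 12 months) with 1 library left out. For genotype by age it was 4, and 0 with TPM as deposited, 8 with the replicate block, 19 without the 3 high libraries, and 0 to 44 (without replicate 2 of APP at 6 months) with 1 library left out. The cause was not tested.

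Log2 changes that turned sign were all on uncalled members. With TPM as deposited they were Drd1 0.31, Adora2a 0.078, Ppp1r1b 0.35 (APP against WT at 6 months), Tcf7l2 0.11, Drd1 0.002, Rgs9 0.065 (APP against WT at 12 months), Scn4b -0.054, Drd1 -0.18 (APP at 12 against 6 months), Foxp2 0.046, Drd1 0.13, Ppp1r1b 0.12 (WT at 12 against 6 months) and Ppp1r1b -0.077 (genotype by age). Without the 3 high libraries they were Foxp2 -0.17, Scn4b -0.043, Prkcd -0.47, Drd2 -0.006 (APP against WT at 6 months), Tcf7l2 0.076, Prkcd 0.52, Drd1 -0.029, Drd2 0.005 (APP at 12 against 6 months). With a pseudocount of 0.1 it was Tcf7l2 0.006 (APP against WT at 12 months). With coverage it was Drd1 0.023 (WT at 12 against 6 months). For APP against WT at 6 months, leaving out 1 library at a time turned the sign of Foxp2 (-0.17 to 0.40), Scn4b (-0.043 to 0.22), Prkcd (-0.47 to 1.00), Drd1 (-0.35 to 0.031), Drd2 (-0.006 to 0.65). For APP against WT at 12 months, leaving out 1 library at a time turned the sign of Tcf7l2 (-0.36 to 0.45), Drd1 (-0.23 to 0.047), Rgs9 (-0.10 to 0.029), Ppp1r1b (-0.024 to 0.24). For APP at 12 against 6 months, leaving out 1 library at a time turned the sign of Tcf7l2 (-1.06 to 0.076), Prkcd (-0.95 to 0.52), Drd1 (-0.067 to 0.20), Drd2 (-0.65 to 0.005). For WT at 12 against 6 months, leaving out 1 library at a time turned the sign of Foxp2 (-0.31 to 0.12), Tcf7l2 (-0.23 to 0.57), Drd1 (-0.20 to 0.19), Rgs9 (-0.068 to 0.21), Ppp1r1b (-0.24 to 0.056). The 3-month difference of Foxp2 was 0.32 with coverage in place of TPM, where its values are under 1 and the pseudocount outweighs them. The median r between members was 0.248 without the 3 high libraries. Of the 47 placings of nearest genes, 19 stayed nearest on deviations from group means.

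Same-numbered replicates of different groups did not deviate together in every pair (r from -0.146 to 0.228). The highest r was between replicate 1 of APP at 3 months and replicate 1 of APP at 6 months, both among the high libraries. Such r cannot exclude a shared litter or day, which the labels do not state, and the main fit used no pairing. With the replicate block 0 members were called in each tested contrast, and 307 genes at 6 months and 68 at 12 months. Groups of 2 or 3 mice, and TPM near 1 for Drd2 and Adora2a, limit the precision.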

Other observations

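Other regions outside the hippocampus were followed by short lists. Of all genes tested, 0.348% (replicate 3 of APP at 6 months) to 2.23% (replicate 1 of APP at 3 months) were raised per library. Of 5 tested hypothalamic genes, Avp, Pomc and Cartpt were raised at least 2-fold in replicate 1 of APP at 3 months, and Oxt and Avp in replicate 1 of APP at 6 months. Oxt and Avp were also raised in replicate 2 of WT at 12 months, and Pomc in replicate 3 of APP at 6 months, in replicate 1 of APP at 12 months and in replicate 1 of WT at 12 months. The medians of Oxt and Avp in the 14 others were 0.0 and 0.45 scaled TPM, under the filter of 1 TPM, so nothing is read from their counts. The 3 tested genes of midbrain dopamine neurons, Slc18a2, Ddc and Aldh1a1, were all raised in replicate 1 of APP at 3 months. Ddc alone was raised in replicate 2 of APP at 3 months and in replicate 1 of APP at 6 months. Of 4 medial habenula markers, Gpr151 and Tac2 were raised in replicate 2 of WT at 3 months, Tac2 in replicate 1 of WT at 6 months and Gpr151 in replicate 1 of APP at 6 months, with none raised in replicates 1 and 2 of APP at 3 months. Of 8 pan-neuronal markers 0 were raised at least 2-fold in any of these libraries, and 1, Rbfox3, was at least 2-fold below its median in replicate 1 of APP at 3 months (30.8 scaled TPM against 45.5 to 82.3 in the 14 others).

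In HT-22 cells 4 striatal members, Scn4b, Drd1, Drd2 and Rgs9, were listed at 0 in all 14 libraries. Foxp2 was listed at 0 in 9 of 14 and reached 0.061 TPM, Adora2a in 12 of 14 and Ppp1r1b in 11 of 14. The thalamic members were present in every library, Tcf7l2 at 18.6 to 44.7 TPM and Prkcd at 22.2 to 53.4 TPM, against medians of 5.65 and 11.0 TPM over the mouse libraries. The 2 systems were not tested against each other.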
